A study of Mus musculus with 12 samples.

Results

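For each gene, the genotype by Romiplostim interaction asks whether the effect of the drug in Thpo knockout stem cells differs from its effect in wild-type stem cells. It is the change under Romiplostim in knockout cells (treated minus untreated) minus the same change in wild-type cells, on the log2(FPKM + 1) scale, where FPKM is fragments per kilobase of transcript, scaled to a common number of mapped fragments. A value above 0 means that the gene moved further up, or less far down, in the knockout than in the wild type, and a value below 0 means the opposite. The contrast uses all 12 of the 12 RNA-seq libraries, and 12823 of the 35275 genes in the table entered it, those reaching 1 FPKM in 3 or more of the 12. The libraries came from hematopoietic stem cells sorted from C57BL/6 mice, in 4 groups of 3: wild type (Thpo+/+) untreated, wild type given Romiplostim for 10 days at 100 µg/kg per day intravenously, Thpo knockout (Thpo-/-) untreated, and Thpo knockout given the same course. PBS was the control injection. How Thpo was inactivated, the ages of the mice and the sort gate are not given in the sources used here, and the labels do not say that each library is a separate mouse, so the p-values measure the spread between libraries, which may be technical.

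Thrombopoietin, the product of Thpo, is made mainly in liver and acts on stem cells and megakaryocytes. Its signal runs through JAK2 to STAT5, the RAS-MAP kinase route and PI3-kinase. STAT5 dimers bind a palindromic DNA element and switch on genes such as Cish and Socs2, whose products dampen further signalling. In adult marrow the hormone is known both as the driver of platelet production and as a signal that maintains quiescent stem cells. Romiplostim is a peptide-antibody fusion protein that mimics the hormone, so it adds to the animal's own thrombopoietin in wild type and replaces it in the knockout.

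The libraries held an estimated 27.67 to 35.51 M fragments, and 11262 to 12374 genes reached 1 FPKM in each. Per the series' design text, each run of the sequencer carried 1 group, so run and group cannot be told apart. Genes that mark the Y chromosome set a second limit. Their mean level in the 3 untreated knockout libraries was 3.02 to 3.99 on the log2 scale, against 0.01 to 0.05 in the 3 treated knockout libraries. In the wild type 1 untreated and 1 treated library lacked them, at 0.18 and 0.03. The level of Y-linked genes therefore moved with the drug in the knockout, where the 2 cannot be told apart, and not in wild type. Xist, the X-inactivation gene, stood at 2.56, 0.06 and 3.28 in untreated and 4.56, 4.40 and 5.40 in treated knockout libraries. In wild type it stood at 0.11, 5.37 and 0.27 untreated and 4.45, 0.09 and 0.19 treated. Untreated knockout replicates 1 and 3 thus had both Xist and Y-linked genes, and the reason was not tested. Markers of 7 other marrow cell types (136 genes) averaged 2.55 to 2.76 in untreated and 2.59 to 2.95 in treated wild type, 5.20 to 5.79 in untreated knockout and 2.91 to 3.82 in treated knockout libraries. In such bulk samples fewer cells of a type and less RNA per cell cannot be told apart.

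The change under Romiplostim differed between the 2 genotypes for part of the genes tested. The interaction passed an adjusted p of 0.05 (limma, Benjamini-Hochberg over the 12823 genes) for 1996 genes, 15.6% of those tested: 709 (5.53%) had a positive and 1287 (10.0%) a negative value, and 1170 of the 1996 were at least 2-fold. Among the single arms, 236 genes (1.84%) passed in wild type, of which 111 rose (0.866%), and 3797 (29.6%) in the knockout, of which 1377 rose (10.7%) and 2420 fell (18.9%). The 2 effects share no library, and across the 12823 genes they were almost unrelated, with a Pearson r of 0.101 and a Spearman rho of 0.02, given as a description since genes are not replicates. The SD of the effect over genes was 0.722 in the knockout and 0.392 in wild type. With the level of the Y-linked genes as a covariate the count of calls fell from 1996 to 487, of which 480 were among the 1996. All 1996 kept their sign in that fit, as in every fit without 1 library, while the median standard error of the interaction went from 0.251 to 0.311. The Y-linked level moved with the drug in the knockout, so the covariate cannot separate the 2 there. The kept signs are therefore no check on it. Leaving out 1 library gave between 1088 calls (without treated wild-type replicate 3) and 2687 calls (without treated knockout replicate 2).

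**Figure D1:**
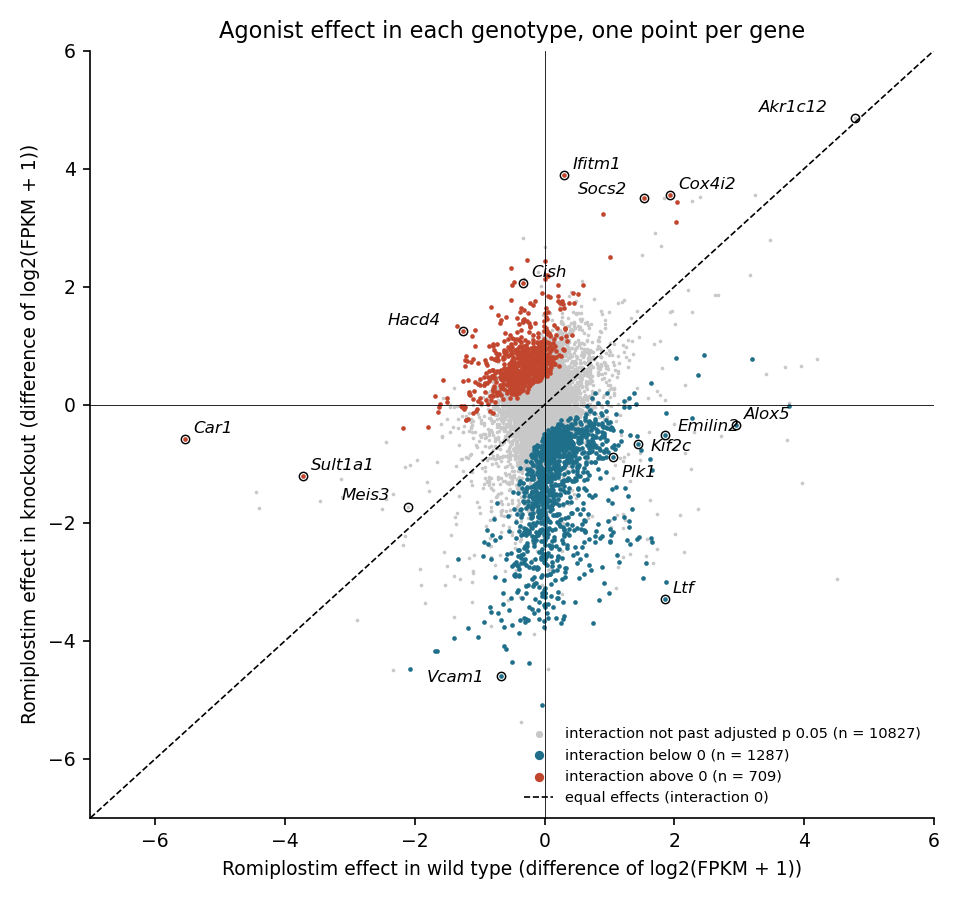
Effect of Romiplostim in wild type (x axis) against its effect in the knockout (y axis), both as differences of mean log2(FPKM + 1) of 3 libraries, for 12823 genes. Points on the dashed line have an interaction of 0. The 709 positive calls lie above the line and the 1287 negative calls below it, most of them spread along the vertical axis, and Akr1c12 lies near the line at 4.78 and 4.85.

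For most called genes the effect passed in the knockout alone. Alone, here and below, means that only that genotype's effect passed the threshold, not that the other genotype was unmoved. Whether or not they passed, the wild-type and knockout effects had opposite signs in 578 of the 709 positive calls (81.5%). The same held for 887 of the 1287 negative calls (68.9%). Of the 709 positive calls, 517 had an effect that passed in the knockout alone, 49 in wild type alone, 17 in both with opposite signs, 5 in both with the same sign and 121 in neither. Of the 1287 negative calls, 1145 passed in the knockout alone, 41 in wild type alone, 14 with opposite signs, 5 with the same sign and 82 in neither. The untreated knockout was the group with the lowest mean FPKM for 676 of the 709 positive genes, against 4631 of the 12823 tested (36.1%), and the group with the highest mean for 1235 of the 1287 negative genes, against 5095 of those tested (39.7%). The gap between genotypes was smaller with the drug than without it for 1910 of the 1996 genes (95.7%), and for 9477 of all genes tested (73.9%). These shares describe the form of the interaction and are not separate evidence for it, since they use the same 4 group means.

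**Figure D2:**
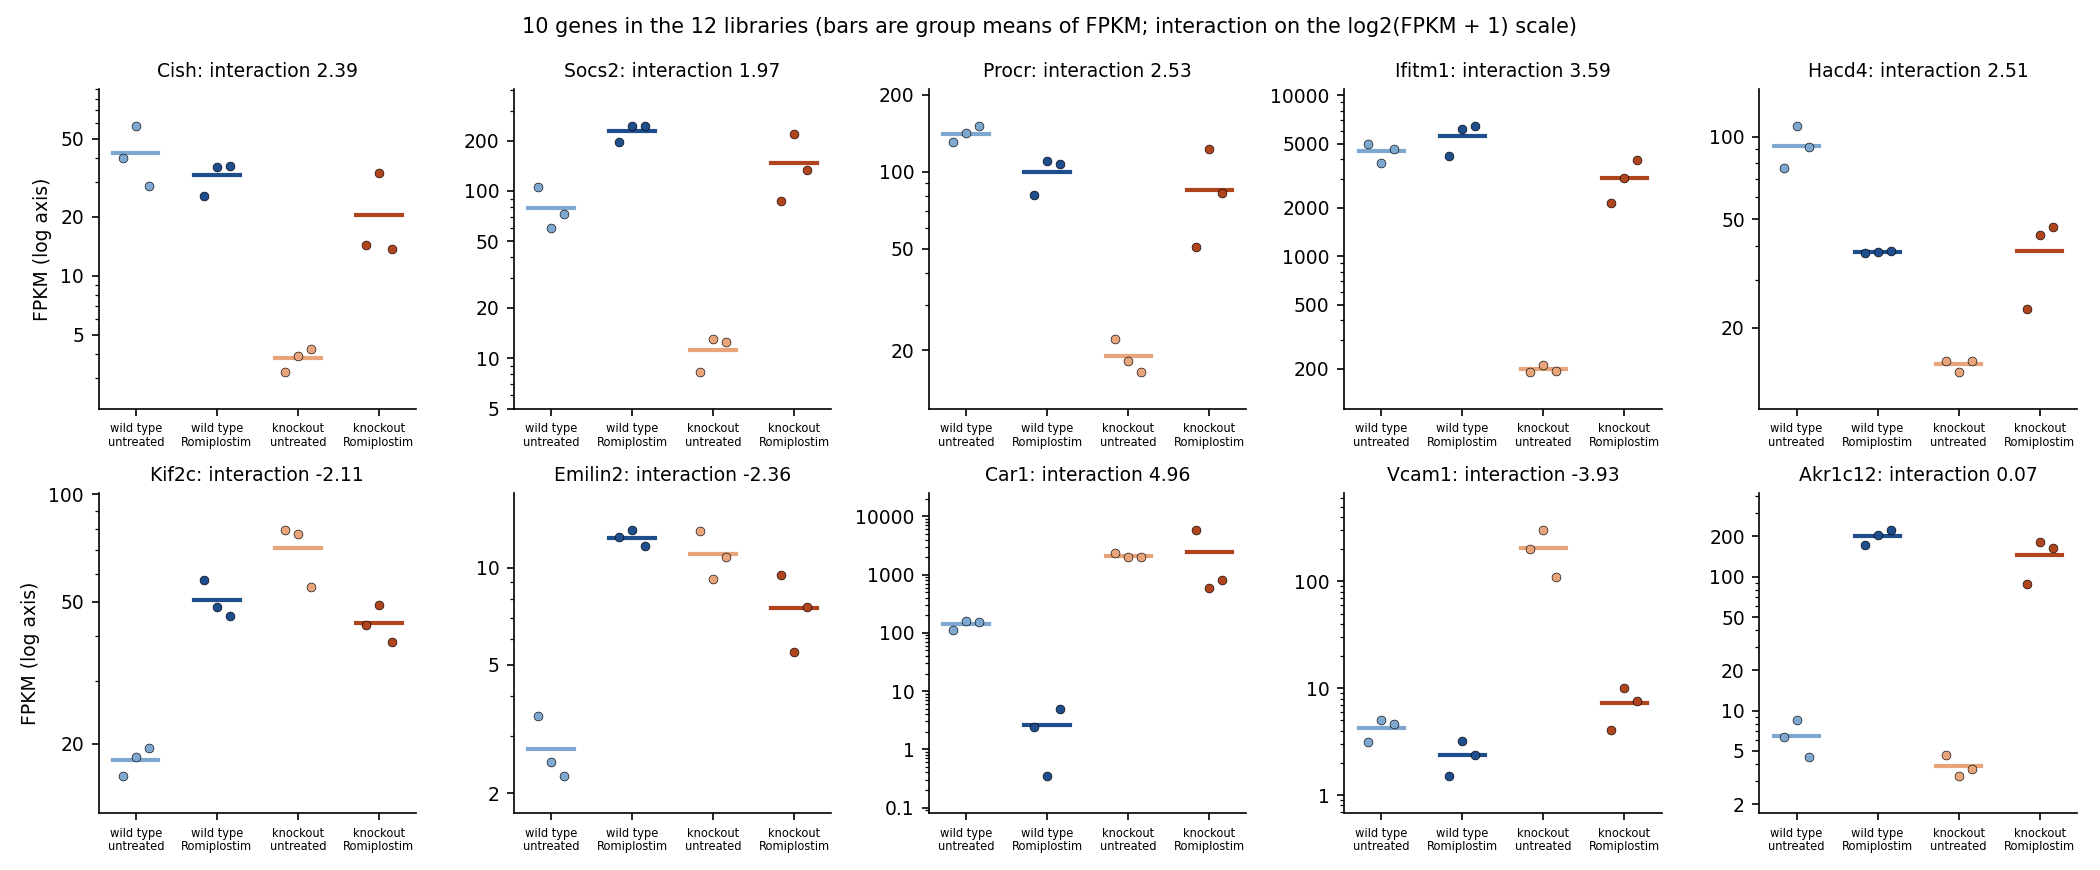
FPKM of 10 genes in the 12 libraries on a log axis, 1 point per library and a bar at each group's mean FPKM. Alone means that only that genotype's effect passed the threshold. The rows show the main forms of the interaction: a rise in the knockout alone (Cish, Procr, Ifitm1), unequal rises (Socs2), opposite changes (Hacd4, Kif2c), a change in wild type alone (Emilin2, Car1), a fall in the knockout alone (Vcam1) and, for contrast, equal rises (Akr1c12).

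At the start of the pathway, Thpo itself was too low to test: it was listed at 0 in all 6 knockout libraries and in 4 of 6 wild-type libraries, with 0.0208 and 0.0426 FPKM in the others, all at or under the level of 3 fragments on a 2 kb transcript (0.0422 to 0.0542 FPKM), so it does not check the labels.

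Among 20 genes of thrombopoietin signalling, 4 were called, close to the 15.6% of all genes. Pik3r1, a regulatory subunit of PI3-kinase, was positive: it fell by 0.99 in wild type (adjusted p = 0.0169) and had a difference of 0.12 in the knockout, an interaction of 1.11 ± 0.25 (adjusted p = 0.0145). Among the 3 negative genes were Lyn, a SRC-family kinase, and Grb2, an adaptor to RAS. Lyn stood at 59.0, 62.1 and 76.2 FPKM in untreated knockout libraries and 23.2, 34.8 and 32.5 in treated ones, without overlap, and its interaction was -1.35 ± 0.30 (adjusted p = 0.0128). Jak2, Stat5a and Stat5b were not called.

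Cish and Socs2, feedback inhibitors that STAT5 is known to switch on, rose in the knockout and had positive interactions, while Socs1, Socs3, Dusp6, Spry1, Spry2 and Spred1, other feedback inhibitors of signalling, were not called. Cish, an SH2 protein that blocks STAT5 docking (chr9:107296026-107302784), had 39.9, 58.3 and 28.9 FPKM in untreated and 25.4, 36.1 and 36.4 in treated wild type, which overlap. In the knockout it had 3.23, 3.86 and 4.24 FPKM untreated and 14.4, 33.4 and 13.7 treated, with every treated library above every untreated one. Cish rose by 2.06 in the knockout (adjusted p = 0.000934) against a difference of -0.33 in wild type (adjusted p = 0.764), an interaction of 2.39 ± 0.45 (adjusted p = 0.00705), which held in every alternative fit except that with the Y-linked covariate (adjusted p = 0.0518). Its RefSeq promoter window (GRCm38.p6, chr9:107296409-107296708, plus strand, 250 bases before to 50 after the RefSeq gene start) is shown because it holds the palindromic STAT5-type motif TTCNNNGAA 2 times, in capitals, with first bases 1 and 12 counted from the RefSeq gene start. That start lies 633 bases inside the outermost start of the GENCODE gene given above.
Cish: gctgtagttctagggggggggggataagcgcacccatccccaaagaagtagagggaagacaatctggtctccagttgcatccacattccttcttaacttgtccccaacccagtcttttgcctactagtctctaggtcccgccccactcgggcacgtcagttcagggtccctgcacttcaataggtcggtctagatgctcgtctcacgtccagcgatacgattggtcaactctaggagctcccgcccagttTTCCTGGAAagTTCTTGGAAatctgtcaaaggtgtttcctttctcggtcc
That motif, which reads the same on both strands, occurs in 2726 of all 32851 windows of this length (8.30%), and in 2 of the 16 windows found for the 23 STAT5 targets and feedback inhibitors tested. A match is a description and not a bound site, and no factor binding was measured here.

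Socs2 (chr10:95385362-95417180), an inhibitor of cytokine receptor signalling, rose in both genotypes but by unequal amounts. It had 106, 60.2 and 72.5 FPKM in untreated and 195, 245 and 244 in treated wild type, and 8.29, 13.1 and 12.4 in untreated and 86.5, 219.6 and 133 in treated knockout libraries. Treated libraries were above untreated ones in both genotypes, and the treated groups overlapped. The rise was 1.54 in wild type (adjusted p = 0.0258) and 3.51 in the knockout (adjusted p = 2.81e-05), and the interaction of 1.97 ± 0.43 (adjusted p = 0.0128) passed under all 24 alternatives. Pim1, a survival kinase also induced by STAT5, did not pass, at 0.72 ± 0.34 (adjusted p = 0.174).

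Over all 23 STAT5 targets and feedback inhibitors, 5 were positive and 2 negative, beside 5.53% and 10.0% of all genes, and the median was 0.07, a sign that changed between alternatives (-0.15 to 0.31). The positive ones were Ccnd2, Cish, Socs2, Ccnd1 and Dusp4. The D-type cyclins, which start the G1 phase with CDK4 and CDK6, did not share a form. Ccnd2 rose by 0.68 in the knockout (adjusted p = 0.00764) with a difference of -0.55 in wild type, an interaction of 1.24 ± 0.22 (adjusted p = 0.00551). Ccnd1 instead fell by 1.64 in wild type (adjusted p = 0.00703), from 19, 16.2 and 22.7 to 5.12, 4.61 and 6.81 FPKM, with a difference of -0.12 in the knockout; its interaction was 1.52 ± 0.35 (adjusted p = 0.0155). Ccnd3 was negative.

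Genes of stem cell identity had positive interactions. Of 32 such genes tested, 14 were positive and 0 negative, against 5.53% and 10.0% of all genes, and their median interaction was 0.96 where that of all genes was -0.047. The median effect was -0.25 in wild type, where 1 gene fell and 0 rose, and 0.62 in the knockout, where 16 rose and 1 fell. The mean level of the list was 5.68, 5.88 and 5.8 in untreated wild type, 5.5, 5.65 and 5.63 in treated wild type, 4.49, 4.19 and 4.36 in untreated knockout and 4.66, 5.49 and 5.26 in treated knockout libraries. Treated knockout replicate 1 was the lowest of its group, and without it 21 members were positive. Positive calls over all genes also increased without it, from 709 to 1163. Leaving out any other library gave 9 to 13 positive members. With the Y-linked covariate 4 were positive, and the median was 0.90. Over the same groups the markers of other marrow cells averaged 2.68, 2.80, 5.44 and 3.43, and their part in the stem cell result was not tested.

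Procr (chr2:155751117-155755471), the protein C receptor used as a stem cell surface marker, had 130.2, 141 and 151 FPKM in untreated and 81.1, 110.4 and 108 in treated wild type. In the knockout it had 22.2, 18.2 and 16.5 FPKM untreated and 50.5, 122 and 82.2 treated. The drug groups did not overlap in either genotype, with treated libraries lower in wild type and higher in the knockout. Only the rise of 2.03 in the knockout passed (adjusted p = 0.000273), and the interaction was 2.53 ± 0.36 (adjusted p = 0.00246).

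Ifitm1 (chr7:140967221-140969825), an interferon-inducible membrane protein that is abundant in stem cells, gave the second largest positive interaction among genes with a group mean of at least 5 FPKM. It had 191, 210.0 and 194 FPKM in untreated and 2139, 3054 and 3954 in treated knockout libraries, against 3797 to 4964 untreated and 4174 to 6438 treated in wild type. The rise in the knockout was 3.89 (adjusted p = 3.96e-06) and the interaction 3.59 ± 0.33 (adjusted p = 0.000369). Its neighbour in the family, Ifitm3, gave 2.14 ± 0.29 (adjusted p = 0.00191), although some reads of these related genes may have been split by the counting. The chromatin reader Mllt3 (1.65 ± 0.26, adjusted p = 0.00358) and the transcription factor Hlf (1.83 ± 0.40, adjusted p = 0.013), both known to maintain stem cells, also rose in the knockout alone. Slamf1, the CD150 antigen often used to sort stem cells, did not pass (1.05 ± 0.38, adjusted p = 0.0832), and 17 further members were not called.

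Outside that list, Erp27, an endoplasmic reticulum protein, and Lhcgr, the luteinizing hormone receptor, rose in the knockout alone. Lhcgr had 1.17, 0.963 and 1.05 FPKM in untreated and 8.00, 10.8 and 12.4 in treated knockout libraries, and 16.8 to 24.5 FPKM in the 6 wild-type libraries. All treated knockout libraries lay between the untreated knockout and the wild type. Its interaction was 2.72 ± 0.24 (adjusted p = 0.000267), and that of Erp27 2.84 ± 0.34 (adjusted p = 0.00117). Il4, a cytokine gene read in these cells as well as in basophils and mast cells, gave 2.33 ± 0.35 (adjusted p = 0.00296), from 2.39, 1.87 and 1.91 to 20.6, 37.7 and 26.9 FPKM in the knockout. It was the 1 positive gene of 12 on the mast cell and basophil list, on which 6 were negative.

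Genes reported to gain expression in aged stem cells formed a second positive list, with 9 positive and 1 negative of 24, against 5.53% and 10.0% of all genes, and a median of 1.01. The list overlaps the one above, since Mllt3 and Slamf1 stand on both. The median effect of the ageing list was -0.53 in wild type, where 4 genes fell, and 0.29 in the knockout, where 7 rose and 3 fell. Sult1a1, a sulfotransferase, fell in both genotypes. It had 164, 110.3 and 104 FPKM in untreated and 10.7, 7.77 and 7.13 in treated wild type, a fall of 3.73 (adjusted p = 0.000123), and 13.1, 15.6 and 25.5 against 5.74, 11.1 and 5.18 FPKM in the knockout, a fall of 1.21 (adjusted p = 0.0109). Its positive interaction of 2.52 ± 0.42 (adjusted p = 0.00434) was thus the larger fall in wild type. Fhl1, a LIM-domain protein, fell by 1.57 in wild type alone (interaction 2.0 ± 0.35, adjusted p = 0.00537). Vwf, von Willebrand factor, rose by 1.89 in the knockout and passed narrowly (1.45 ± 0.39, adjusted p = 0.03); the call was lost in 11 of 24 alternatives, with adjusted p from 0.0528, without the library of highest other-cell markers in each knockout group, to 0.158 with the Y-linked covariate, and among them the fits without any 1 of untreated wild-type replicates 2 and 3, the 3 treated wild-type libraries, untreated knockout replicates 2 and 3 and treated knockout replicate 3.

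**Figure D3:**
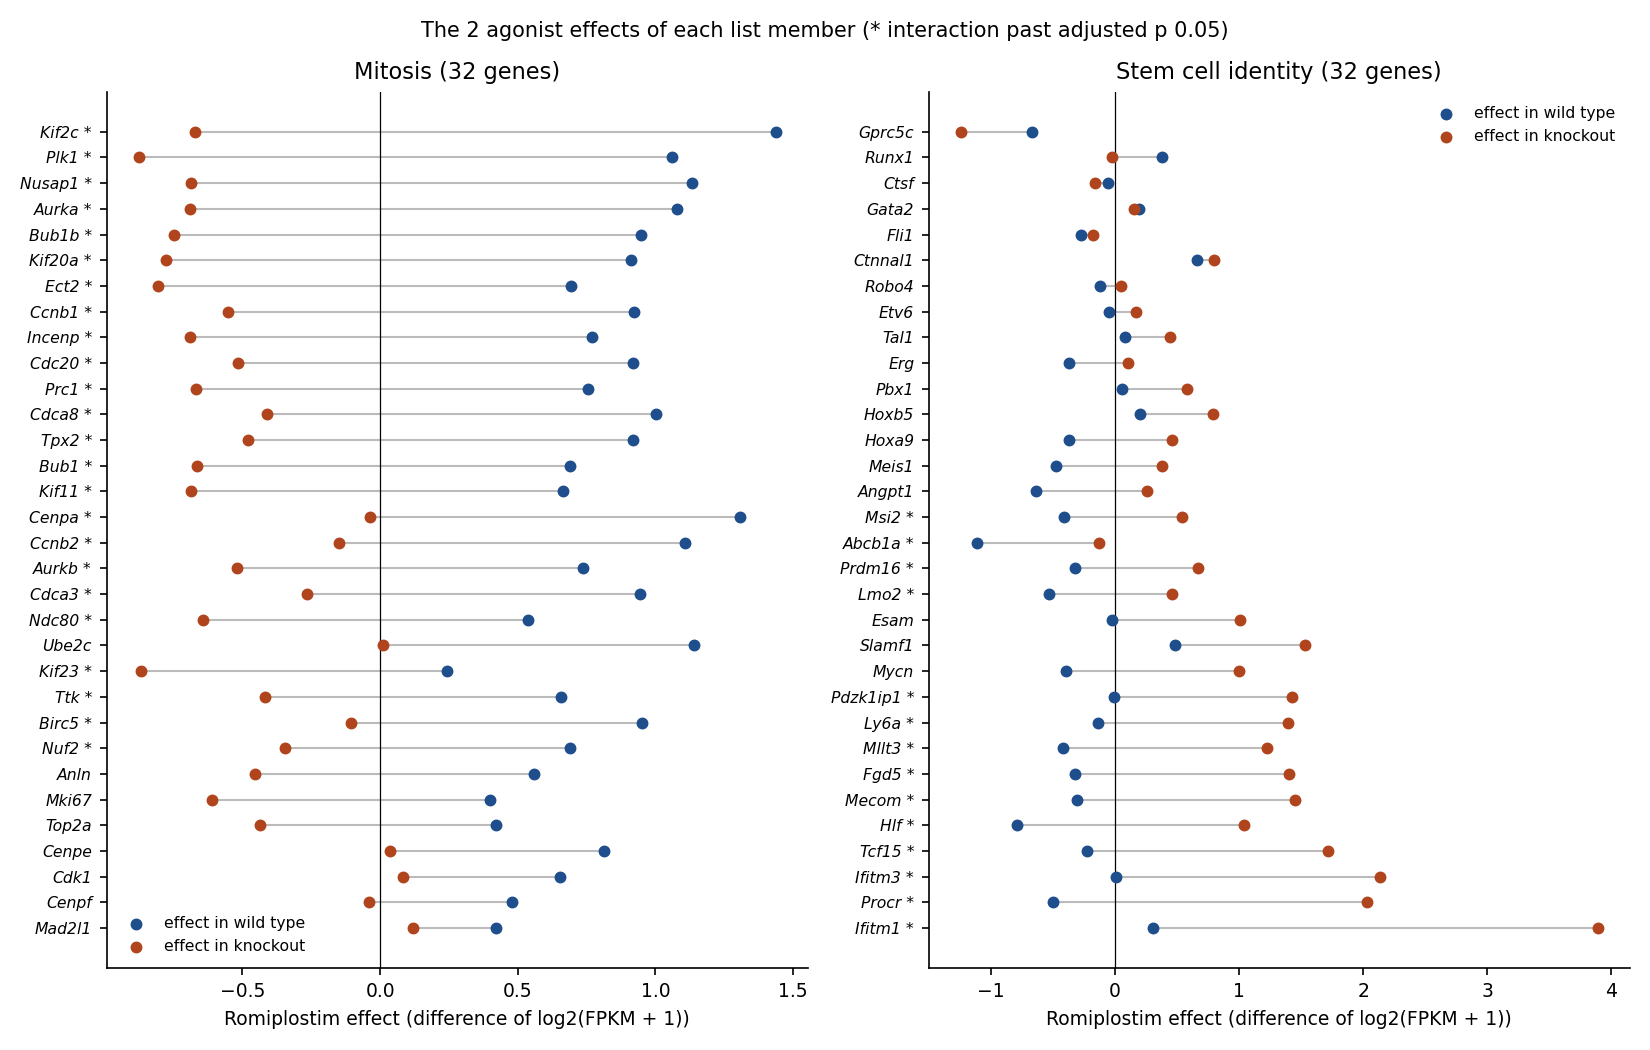
Effect of Romiplostim in wild type (blue) and in the knockout (red) for the 32 mitosis genes and the 32 stem cell identity genes, joined by a line whose length is the size of the interaction; an asterisk marks adjusted p under 0.05. All 32 mitosis genes have the blue point to the right of 0 and of the red point, while 28 of the 32 stem cell genes have the red point to the right of the blue one.

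Mitosis genes gave the most uniform negative interaction with changes in both arms. The drug moved them up in wild type and, for most, down in the knockout: of 32 tested, 24 were negative and 0 positive, against 10.0% and 5.53% of all genes, with a median interaction of -1.30. All 32 had a wild-type effect above 0 (median 0.79), 13 of which passed, and 28 had a knockout effect below 0 (median -0.52), 14 of which passed. In wild type the treated libraries lay above the untreated ones without overlap for 29 of 32 genes, where 10.3% of all genes did; in the knockout they lay below for 15 of 32, where 24.7% of all genes did. The mean level of the list was 4.55, 4.73 and 5.09 in untreated and 5.72, 5.52 and 5.56 in treated wild type, 6.25, 6.45 and 5.82 in untreated and 5.81, 5.69 and 5.65 in treated knockout libraries. The treated groups of both genotypes thus overlapped, between the untreated wild type below and the untreated knockout above. Leaving out 1 library at a time left 22 to 26 members negative, and the Y-linked covariate left 13 with a median of -1.29.

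Kif2c (chr4:117159639-117182639), a kinesin that takes microtubules apart at centromeres, had 16.2, 18.3 and 19.4 FPKM in untreated and 57.6, 48.4 and 45.6 in treated wild type. It had 79.4, 77.6 and 54.9 in untreated and 43.1, 48.9 and 38.7 in treated knockout libraries. Neither pair of groups overlapped: treated libraries were higher in wild type and lower in the knockout. It rose by 1.44 in wild type (adjusted p = 0.00114) and fell by 0.67 in the knockout (adjusted p = 0.00903), and the interaction was -2.11 ± 0.22 (adjusted p = 0.000793).

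Plk1 (chr7:122159439-122169873), the kinase that drives entry into mitosis, had 18.9, 19.3 and 25.4 FPKM in untreated and 51.9, 42.5 and 41.1 in treated wild type, then 105, 112 and 74.0 in untreated and 56.6, 52.1 and 46.4 in treated knockout libraries. The same opposite order held without overlap, and its interaction was -1.94 ± 0.25 (adjusted p = 0.0013). Aurka, the spindle pole kinase, gave -1.77 ± 0.24 (adjusted p = 0.00161) and Kif20a, a kinesin of cell cleavage, -1.69 ± 0.25 (adjusted p = 0.00296), each with both arms past the threshold in opposite directions. Of the 14 negative genes with opposite passing effects, 6 were on the mitosis list. Mki67, the proliferation antigen, did not pass (-1.01 ± 0.41, adjusted p = 0.117); without treated knockout replicate 1 its adjusted p was 0.0427.

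Promoter windows are shown for the 3 called mitosis genes of smallest p whose RefSeq window starts within 60 bases of the outermost annotated transcript start and holds the motif TTTGAA, a cell cycle homology region known from genes of the G2 and M phases. The motif was chosen after the mitosis result was known. Capitals mark it. The windows are chr7:122159185-122159484 (plus strand) for Plk1, chr2:172370521-172370820 (minus strand) for Aurka and chr7:80294201-80294500 (plus strand) for Prc1, a spindle midzone protein, all GRCm38.p6 and 5′ to 3′ on the gene's strand.
Plk1: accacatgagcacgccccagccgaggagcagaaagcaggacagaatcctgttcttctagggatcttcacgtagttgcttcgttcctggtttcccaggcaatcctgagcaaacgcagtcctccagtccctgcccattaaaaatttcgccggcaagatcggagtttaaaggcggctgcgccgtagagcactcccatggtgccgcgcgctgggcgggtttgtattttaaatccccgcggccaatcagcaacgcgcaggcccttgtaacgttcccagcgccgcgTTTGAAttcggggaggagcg
Aurka: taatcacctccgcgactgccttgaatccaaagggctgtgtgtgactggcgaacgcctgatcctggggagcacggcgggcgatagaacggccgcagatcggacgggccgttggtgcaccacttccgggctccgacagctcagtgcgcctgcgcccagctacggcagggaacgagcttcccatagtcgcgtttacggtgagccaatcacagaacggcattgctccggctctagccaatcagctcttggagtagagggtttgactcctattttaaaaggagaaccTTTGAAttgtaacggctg
Prc1: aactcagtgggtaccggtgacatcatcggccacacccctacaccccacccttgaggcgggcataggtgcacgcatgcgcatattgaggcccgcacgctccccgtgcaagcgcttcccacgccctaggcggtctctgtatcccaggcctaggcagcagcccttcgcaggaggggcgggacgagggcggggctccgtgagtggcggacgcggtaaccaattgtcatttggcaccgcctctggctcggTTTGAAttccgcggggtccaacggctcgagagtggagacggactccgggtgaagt
TTTGAA, searched on both strands, occurred in 21 of the 28 windows found for the 32 mitosis genes (75.0%) and in 17.9% of all 32851 windows. A match starting within 60 bases of the gene start occurred in 19 of those 28 (67.9%) and in 5.5% of all windows. The share was the same among called and uncalled mitosis genes, 15 of 20 and 6 of 8, so the motif did not separate them. Among DNA replication genes it occurred in 3 of 29 windows, and TTCNNNGAA in 0 of the 28 mitosis windows.

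Genes of DNA replication, which act in S phase, had a different form from mitosis genes in wild type. Of 39 tested, 9 were negative and 0 positive (median -0.54), against 10.0% and 5.53% of all genes. The wild-type arm was flat, with a median effect of 0.02 and 0 genes past the threshold, while 17 fell and 0 rose in the knockout (median -0.51). The list's mean level was 5.51 to 5.99 in untreated and 5.79 to 5.98 in treated wild type, 6.25 to 6.63 in untreated and 5.94 to 6.07 in treated knockout libraries. Rrm2, a subunit of ribonucleotide reductase, had 535, 713 and 429 FPKM in untreated and 189, 207 and 134 in treated knockout libraries, and 81.3 to 169.6 in wild type. It fell by 1.65 in the knockout (adjusted p = 0.000494) and its interaction was -2.06 ± 0.33 (adjusted p = 0.00369). Mcm10, a replication initiation factor, gave -1.25 ± 0.28 (adjusted p = 0.013). Leaving out 1 library gave 2 to 13 negative genes (13 without untreated knockout replicate 3), and the Y-linked covariate 1. Whether the mitosis and replication lists differ from each other was not tested.

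D cyclins, CDK inhibitors and their partners had calls in both directions. Among the 17 tested 3 were positive and 4 negative, against 5.53% and 10.0% of all genes. The positive ones were Ccnd2, Ccnd1 and Cdkn1c, and the negative ones E2f2, Ccnd3, Rb1 and Cdkn1a. Cdkn1c, the inhibitor p57 of quiescent stem cells, was positive at 1.48 ± 0.41 (adjusted p = 0.0315) although neither arm passed; it had 31.7, 21.1 and 21.5 FPKM in untreated and 16.8, 14.1 and 12.6 in treated wild type, and 6.48, 4.54 and 6.55 against 6.32, 17.2 and 10.4 in the knockout. The call was lost in 9 of 24 alternatives, including that with the replicate block (adjusted p = 0.0506). E2f2, an E2F factor, was negative and fell in the knockout alone, from 10.2, 17.6 and 12.8 to 1.73, 2.98 and 2.38 FPKM (interaction -2.27 ± 0.28, adjusted p = 0.00125). The 19 quiescence and imprinted genes tested also went both ways, with 4 positive, 5 negative and a median of -0.19. The positive ones were Grb10, Ndn, Vwf and Cdkn1c, and the negative ones Hes1, Tgfbr2, Foxo1, Btg1 and Cdkn1a. Grb10 rose by 1.09 in the knockout (interaction 1.26 ± 0.22, adjusted p = 0.00482). Ndn fell by 1.26 in wild type (interaction 1.67 ± 0.40, adjusted p = 0.0176).

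Opposite passing effects were found in 31 genes in all, 6 of them on the mitosis list. Hacd4 (chr4:88396144-88438928), an enzyme of long-chain fatty acid synthesis, had 76.7, 109.6 and 92.0 FPKM in untreated and 37.4, 37.8 and 38.3 in treated wild type, and 15.2, 13.8 and 15.2 in untreated and 23.4, 43.9 and 46.9 in treated knockout libraries. It fell by 1.26 and rose by 1.25, an interaction of 2.51 ± 0.31 (adjusted p = 0.00125). The group means with the drug, 37.8 FPKM in wild type and 38.1 in the knockout, lay close together. Lbhd2 (2.70 ± 0.33, adjusted p = 0.00119), Gsta4, a glutathione transferase (1.71 ± 0.19, adjusted p = 0.000978), Fam241b (1.97 ± 0.25, adjusted p = 0.0013) and Nrk, a kinase on the ageing list (1.30 ± 0.22, adjusted p = 0.00456), had the same form. Lbhd2 and Nrk were low, at no more than 7.12 and 1.70 FPKM in any library.

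In 90 called genes the wild-type effect alone passed. Emilin2 (chr17:71252172-71311978), an extracellular matrix glycoprotein, had 3.48, 2.5 and 2.26 FPKM in untreated and 12.4, 13.1 and 11.7 in treated wild type. The knockout had 12.9, 9.25 and 10.8 untreated and 9.49, 5.49 and 7.56 treated, so the untreated knockout already overlapped the treated wild type. Its interaction was -2.36 ± 0.27 (adjusted p = 0.000978). Cd48, a surface antigen absent from the most primitive stem cells, rose from 17.6, 12.6 and 20.8 to 80.2, 78.8 and 96.7 FPKM in wild type, while the knockout had 113, 214 and 144 untreated and 94.5, 119 and 195 treated (interaction -2.5 ± 0.40, adjusted p = 0.00374). Alox5, the 5-lipoxygenase of leukotriene synthesis, rose by 2.95 in wild type, with an interaction of -3.29 ± 0.53 (adjusted p = 0.00384). Spns3 (-1.61 ± 0.24, adjusted p = 0.00309), of a family of lipid transporters, also rose in wild type alone.

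For Spns3 no knockout library, at 10.4 to 20.2 FPKM, reached the treated wild type at 33.3 to 37.5. Bcas1 had the same order. It rose from 0.769, 0.594 and 0.443 to 6.12, 7.43 and 8.31 FPKM in wild type, and had 1.38, 1.66 and 0.652 FPKM in untreated and 1.63, 2.93 and 1.93 in treated knockout libraries, so no knockout library reached the treated wild type. Its interaction was -1.86 ± 0.30 (adjusted p = 0.00377). In the other direction Airn (chr17:12741311-12860136), an imprinted noncoding RNA antisense to Igf2r, fell by 2.18 in wild type alone (interaction 1.79 ± 0.28, adjusted p = 0.00374); reads of an antisense pair cannot be told apart without strand, and whether strand was used is not given in the sources used here.

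Car1 (chr3:14766216-14808368), the carbonic anhydrase of early erythroid cells, had the largest positive interaction among genes with a group mean of at least 5 FPKM. It had 110.0, 160.2 and 156 FPKM in untreated and 2.45, 0.346 and 5.0 in treated wild type, a fall of 5.54 (adjusted p = 0.00285). In the knockout it had 2309, 1994 and 2023 FPKM untreated and 5804, 600.4 and 797 treated, with treated libraries on both sides of the untreated ones. The interaction was 4.96 ± 1.02 (adjusted p = 0.00991), and it missed the threshold with the Y-linked covariate (adjusted p = 0.062). The treated knockout library with the highest Car1, replicate 1, stood apart over the 28 erythroid genes as well, with a mean level of 6.12 against 4.80 and 4.92 in the others of its group and 5.87 to 6.17 in the untreated knockout.

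That library decided the erythroid count. With it 1 erythroid gene was positive and 2 negative of 28, near or under the background, and without it 2 were positive and 13 negative. Over all genes, negative calls went from 1287 to 1369 without it, and positive calls from 709 to 1163. Gata1, the master erythroid and megakaryocytic factor, was negative in both cases: it had 40.1, 54.6 and 49.8 FPKM in untreated and 121, 95.8 and 93.5 in treated wild type, and 256, 211 and 199 against 232, 108 and 88.7 in the knockout, an interaction of -1.84 ± 0.40 (adjusted p = 0.013) with neither arm past the threshold. Tfrc, the transferrin receptor, went from -1.51 ± 0.49 (adjusted p = 0.0573) to an adjusted p of 0.00111 without that library. Klf1, the erythroid Krüppel-like factor, went from an adjusted p of 0.514 to 0.00632. Of 22 genes of heme synthesis and iron handling 4 were negative with it (18.2%, against 10.0% of all genes) and 12 without it.

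The globin result depended on another library. Hba-a2 had 186, 475 and 222 FPKM in untreated and 33.8, 5.57 and 7.42 in treated wild type, a fall of 4.44 (adjusted p = 0.0258), and 408, 352 and 4357 against 366, 192 and 403 in the knockout. Untreated knockout replicate 3 was more than 10 times its group's other libraries. The interaction of 2.96 ± 1.24 did not pass (adjusted p = 0.126), and passed without that library (adjusted p = 0.011). Of 5 globin genes 0 were called, with 3 interactions above 0 and 2 below 0. Without untreated knockout replicate 3, 3 of the 5 were called positive. Hba-a1 and Hba-a2 are near-identical, so the split between them is uncertain.

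Megakaryocyte and platelet genes showed no common direction, with 2 positive and 5 negative of 29, against 5.53% and 10.0% of all genes, and a median of -0.17 whose sign changed between alternatives (-0.55 to 0.36). Itga2b, the platelet integrin CD41, gave -1.43 ± 0.41 (adjusted p = 0.0388), a call lost in 9 of 24 alternatives (adjusted p = 0.0563 without treated knockout replicate 1 and 0.055 with the replicate block). Plek, a platelet kinase C substrate, and P2ry12, a platelet ADP receptor, gave -1.80 ± 0.40 (adjusted p = 0.0143) and -1.09 ± 0.24 (adjusted p = 0.0135), both with a fall in the knockout alone. Selp, P-selectin, did not pass (1.68 ± 0.62, adjusted p = 0.0895). Pf4, platelet factor 4, had an interaction of -0.27 ± 0.80 with a 95% interval of -2.01 to 1.47.

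**Figure D4:**
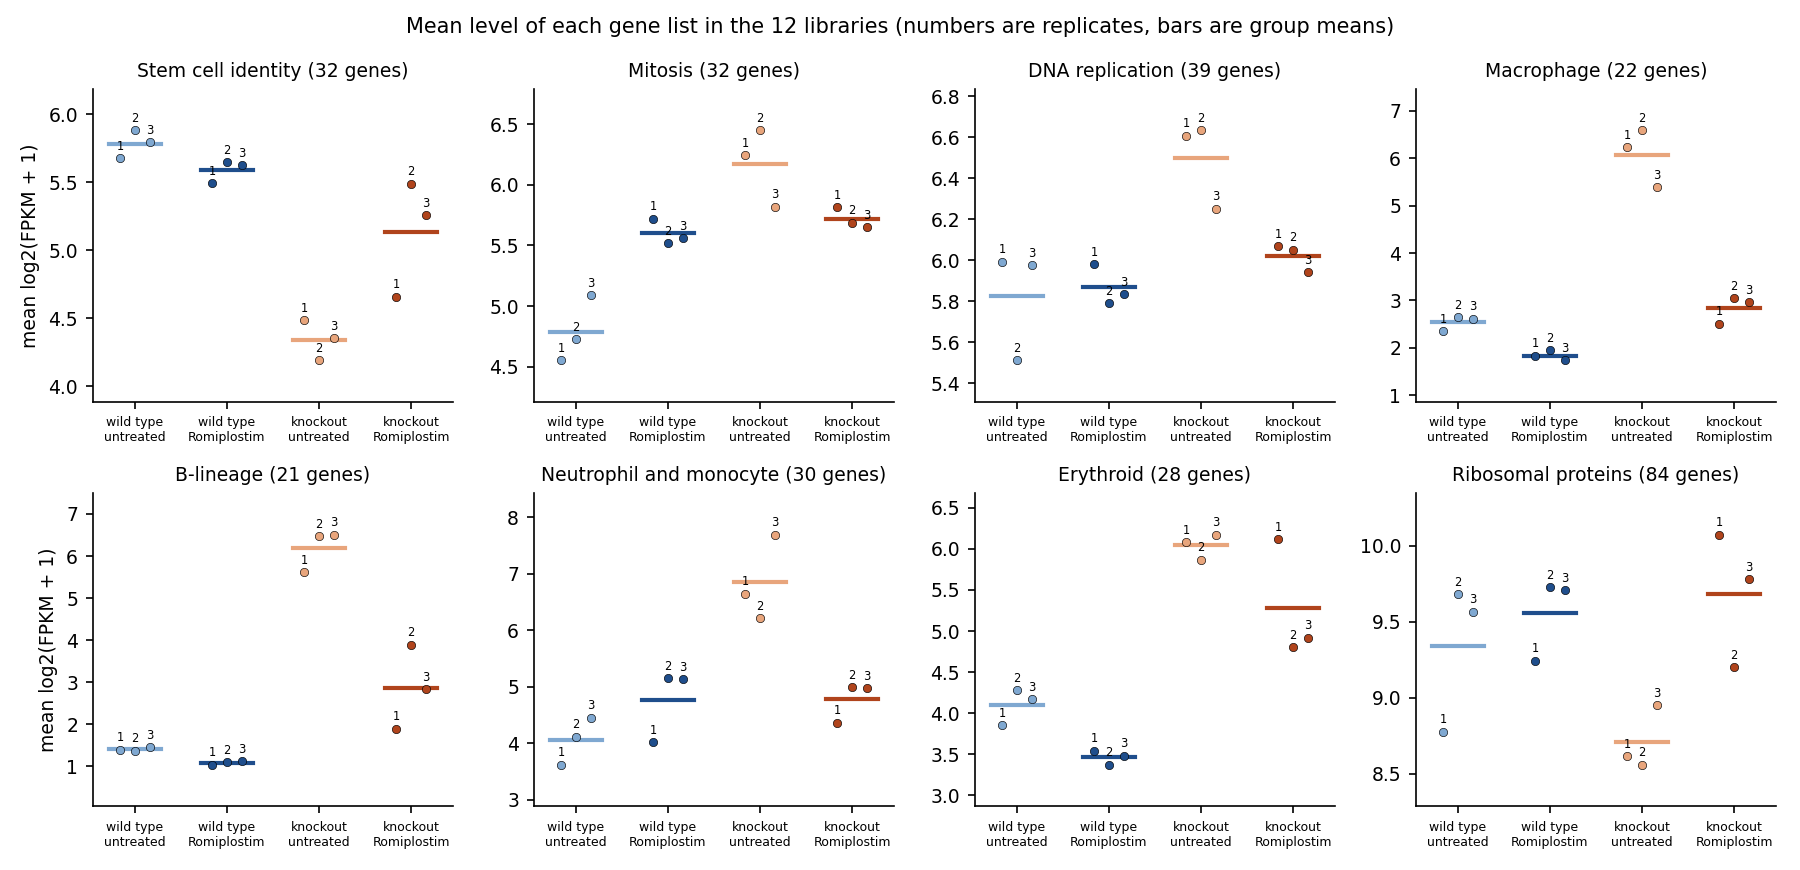
Mean log2(FPKM + 1) over the genes of 8 lists in each of the 12 libraries; numbers mark replicates and bars group means. The untreated knockout stands apart from the other groups in the stem cell identity, macrophage, B-lineage and neutrophil panels, mitosis rises in wild type and falls in the knockout, and treated knockout replicate 1 stays at the untreated level in the erythroid panel.

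The largest negative interactions were those of genes of mature marrow cells, whose levels were highest in untreated knockout libraries. Macrophage genes were negative for 20 of 22 (median -2.58), B-lineage genes for 19 of 21 (median -2.90), neutrophil and monocyte genes for 16 of 30 (median -3.03), lymphoid progenitor genes for 10 of 18 (median -1.65) and T, NK and innate lymphoid genes for 6 of 18 (median -1.23), against 10.0% of all genes, and 0 were positive on these 5 lists. In wild type 0 of 21 B-lineage, 3 of 22 macrophage and 1 of 30 neutrophil and monocyte genes fell past the threshold, and 0 rose. Of all 12823 genes, 125 fell past it there. The wild-type effect was still below 0 for 19 of 21 B-lineage and 20 of 22 macrophage genes. Treated wild-type libraries were lower without overlap for 11 and 13 of these, against 16.5% of all genes. For neutrophil and monocyte genes 26 of 30 wild-type effects were above 0, with 6 genes higher and 3 lower without overlap. The lymphoid progenitor list and the T, NK and innate lymphoid list each had 1 gene that rose and 0 that fell there; the latter had a median wild-type effect of 0.83, with 13 of 18 genes higher in treated libraries without overlap (10.3% of all genes). In the knockout 18.9% of all genes fell past the threshold and 10.7% rose. All 21 B-lineage, all 22 macrophage, 21 of 30 neutrophil and monocyte and 10 of 18 lymphoid progenitor genes fell there, and 0 rose. Of 18 T, NK and innate lymphoid genes 4 fell and 1 rose there, close to the shares of all genes. With the Y-linked covariate 14 macrophage, 7 B-lineage and 8 neutrophil and monocyte genes were negative. Leaving out 1 library gave 20 to 21 macrophage, 12 to 21 B-lineage and 13 to 19 neutrophil and monocyte genes, the 12 without treated wild-type replicate 1 or 3.

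Vcam1 (chr3:116109949-116129688), an adhesion molecule of marrow macrophages and stroma, had 3.15, 5.03 and 4.63 FPKM in untreated and 1.5, 3.19 and 2.36 in treated wild type, and 199.8, 302 and 110.2 in untreated and 4.04, 9.98 and 7.59 in treated knockout libraries. The treated knockout libraries overlapped the untreated wild type, more than 10 times below the untreated knockout. It fell by 4.60 in the knockout (adjusted p = 1.67e-05) and its interaction was -3.93 ± 0.51 (adjusted p = 0.00146). The macrophage genes C1qb, a complement subunit, and Fcna, a ficolin, fell in both genotypes, by 1.69 and 2.08 in wild type and by 4.17 and 4.47 in the knockout. Their interactions of -2.48 ± 0.51 (adjusted p = 0.0105) and -2.39 ± 0.54 (adjusted p = 0.0146) are differences in depth of a fall on the log2(FPKM + 1) scale. Fcna was at 0.266 to 0.982 FPKM in treated wild type, where that scale understates a fall. With a pseudocount of 0.1 its interaction was -1.55 and did not pass (adjusted p = 0.136). With the Y-linked covariate neither gene passed (adjusted p = 0.0584 for C1qb and 0.0781 for Fcna).

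Neutrophil granule genes had the largest values and the widest spread. Ltf, lactoferrin (chr9:111019271-111042767), had 3.90, 19.2 and 20.4 FPKM in untreated and 21.8, 62.6 and 67.4 in treated wild type, against 307, 119 and 1052 in untreated and 22.1, 59.0 and 28.9 in treated knockout libraries. Treated libraries were higher in wild type and lower in the knockout without overlap, but the wild-type difference of 1.85 did not pass (adjusted p = 0.325). The interaction of -5.14 ± 1.10 (adjusted p = 0.0116) was the largest negative one among genes with a group mean of at least 5 FPKM. Ngp, another granule protein (-4.24 ± 1.01, adjusted p = 0.0179), and Fcnb, a myeloid ficolin (-4.44 ± 0.67, adjusted p = 0.00297), fell in the knockout, where treated and untreated libraries did not overlap, while their wild-type libraries overlapped. Camp, the cathelicidin gene (-3.98 ± 1.16, adjusted p = 0.039), lost its call in 11 of 24 alternatives, with an adjusted p of 0.0935 without treated wild-type replicate 3. Fpr1, the formyl peptide receptor of phagocytes, was tighter, with 24.0 to 27.1 FPKM in untreated and 0.626 to 1.53 in treated knockout libraries and no more than 1.14 in wild type (-3.92 ± 0.34, adjusted p = 0.000267). Mpo, myeloperoxidase, gave -3.40 ± 0.71 (adjusted p = 0.011).

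In the lymphoid lineages Pax5, the factor that fixes B cell identity, gave -2.57 ± 0.40 (adjusted p = 0.00327) and was listed at 0 in treated knockout replicate 1 and in all 3 treated wild-type libraries. Ly6d, a marker of B-biased progenitors, gave -4.88 ± 0.79 (adjusted p = 0.00394), Id3, an inhibitor of E proteins, -4.44 ± 0.78 (adjusted p = 0.00505), and Irf8, a factor of monocyte and B-lineage fate, -3.11 ± 0.41 (adjusted p = 0.00157). Of 140 immunoglobulin segments tested 35 were negative and 0 positive, and of 40 T cell receptor segments 7 and 0, against 10.0% and 5.53% of all genes. Hes1, a NOTCH target, had higher treated libraries in wild type (19.8 to 21.2 against 6.31 to 9.97 FPKM, adjusted p = 0.0551) and lower ones in the knockout (3.13 to 7.63 against 18.5 to 40.5), with an interaction of -3.67 ± 0.43 (adjusted p = 0.000979).

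Genes of the NF-kB pathway, which relays inflammatory receptor signals, were negative for 10 of 21 and positive for 0 (median -0.66), against 10.0% and 5.53% of all genes. Tnfaip3, the feedback deubiquitinase A20, had 7.46, 7.72 and 7.77 FPKM in untreated and 1.97, 3.64 and 2.28 in treated knockout libraries, and 1.65 to 3.08 untreated against 3.25 to 3.67 treated in wild type. Only the fall of 1.28 in the knockout passed (adjusted p = 0.000752), with an interaction of -1.77 ± 0.27 (adjusted p = 0.00319). Nfkb2, the p100 subunit, rose instead by 1.18 in wild type (adjusted p = 0.0204), with a knockout difference of -0.61 and an interaction of -1.79 ± 0.31 (adjusted p = 0.00482). Cd40, a receptor of B cells and macrophages on the same list, fell in the knockout alone (-3.13 ± 0.58, adjusted p = 0.00631). The list's mean level was highest in untreated knockout replicate 3 (4.59), which also had the highest level of other-cell markers (5.79), and the part of those cells in the result was not tested. Without it 8 of 21 were negative, leaving out other single libraries gave 3 (without treated wild-type replicate 2) to 11, and the Y-linked covariate gave 3. The lysosomal proteases Ctss (-2.99 ± 0.40, adjusted p = 0.00161) and Ctsb (-1.85 ± 0.41, adjusted p = 0.0135) were among 7 negative of 29 lysosome and autophagy genes, against 10.0% of all genes.

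Genes of protein synthesis and respiration leaned to positive values that few members passed. Of 84 cytosolic ribosomal protein genes 82 had an interaction above 0 (median 0.80), yet 1 was called, a share of 1.19% beside 5.53% of all genes; 72 of the 84 rose in the knockout and 0 in wild type. The list's level was 8.78 to 9.68 in untreated and 9.24 to 9.73 in treated wild type, 8.56 to 8.95 in untreated and 9.20 to 10.07 in treated knockout libraries. Leaving out untreated wild-type replicate 1 or treated knockout replicate 2 made 25 of the 84 positive. Over all genes those 2 fits gave 787 and 890 positive calls, against 709 with all libraries. Of 89 nuclear genes of the respiratory chain 12 were positive (median 0.51), 45 without treated knockout replicate 2, 2 to 14 without any other single library and 0 with the Y-linked covariate; Ndufaf8, an assembly factor of complex I, gave 0.79 ± 0.17 (adjusted p = 0.0115). Mitochondrial ribosomal proteins gave 8 of 76, and the 12 genes encoded in mitochondrial DNA 0, all with values above 0. These lists kept a median above 0 under median-of-ratios scaling and quantile normalization.

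Among 36 interferon-response genes 4 were positive and 0 negative (median 0.41), so that 11.1% were called against 15.6% of all genes. Bst2, tetherin, rose by 0.72 in the knockout, from 117, 131 and 147 to 243, 201 and 206 FPKM, with 179.5 to 273 in wild type, and its interaction was 1.02 ± 0.19 (adjusted p = 0.00641). Of 18 genes of MHC class I presentation 1 was positive, and of 10 of MHC class II 4 were negative, Cd74, the invariant chain, at -2.73 ± 0.58 (adjusted p = 0.0115). Further lists with a called share under the 15.6% of all genes were ribosome biogenesis (1 of 25), glycolysis (1 of 26), cholesterol and lipid synthesis (2 of 28) and the unfolded protein response (2 of 25). The same held for heat shock chaperones (1 of 20), immediate early genes (1 of 20) and regulators of DNA methylation and Polycomb (2 of 23). Fatty acid oxidation had 2 of 19, both positive (10.5%, against 5.53% of all genes). Hspa1b, an inducible HSP70, had a wide interaction of -3.31 ± 1.09 (adjusted p = 0.0609), with 0.426, 11.3 and 3.36 FPKM in untreated and 88.4, 89.7 and 34.5 in treated wild type; its adjusted p was 0.0287 without untreated wild-type replicate 2, 0.0471 without untreated knockout replicate 2 and 0.0454 with the Y-linked covariate.

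**Figure D5:**
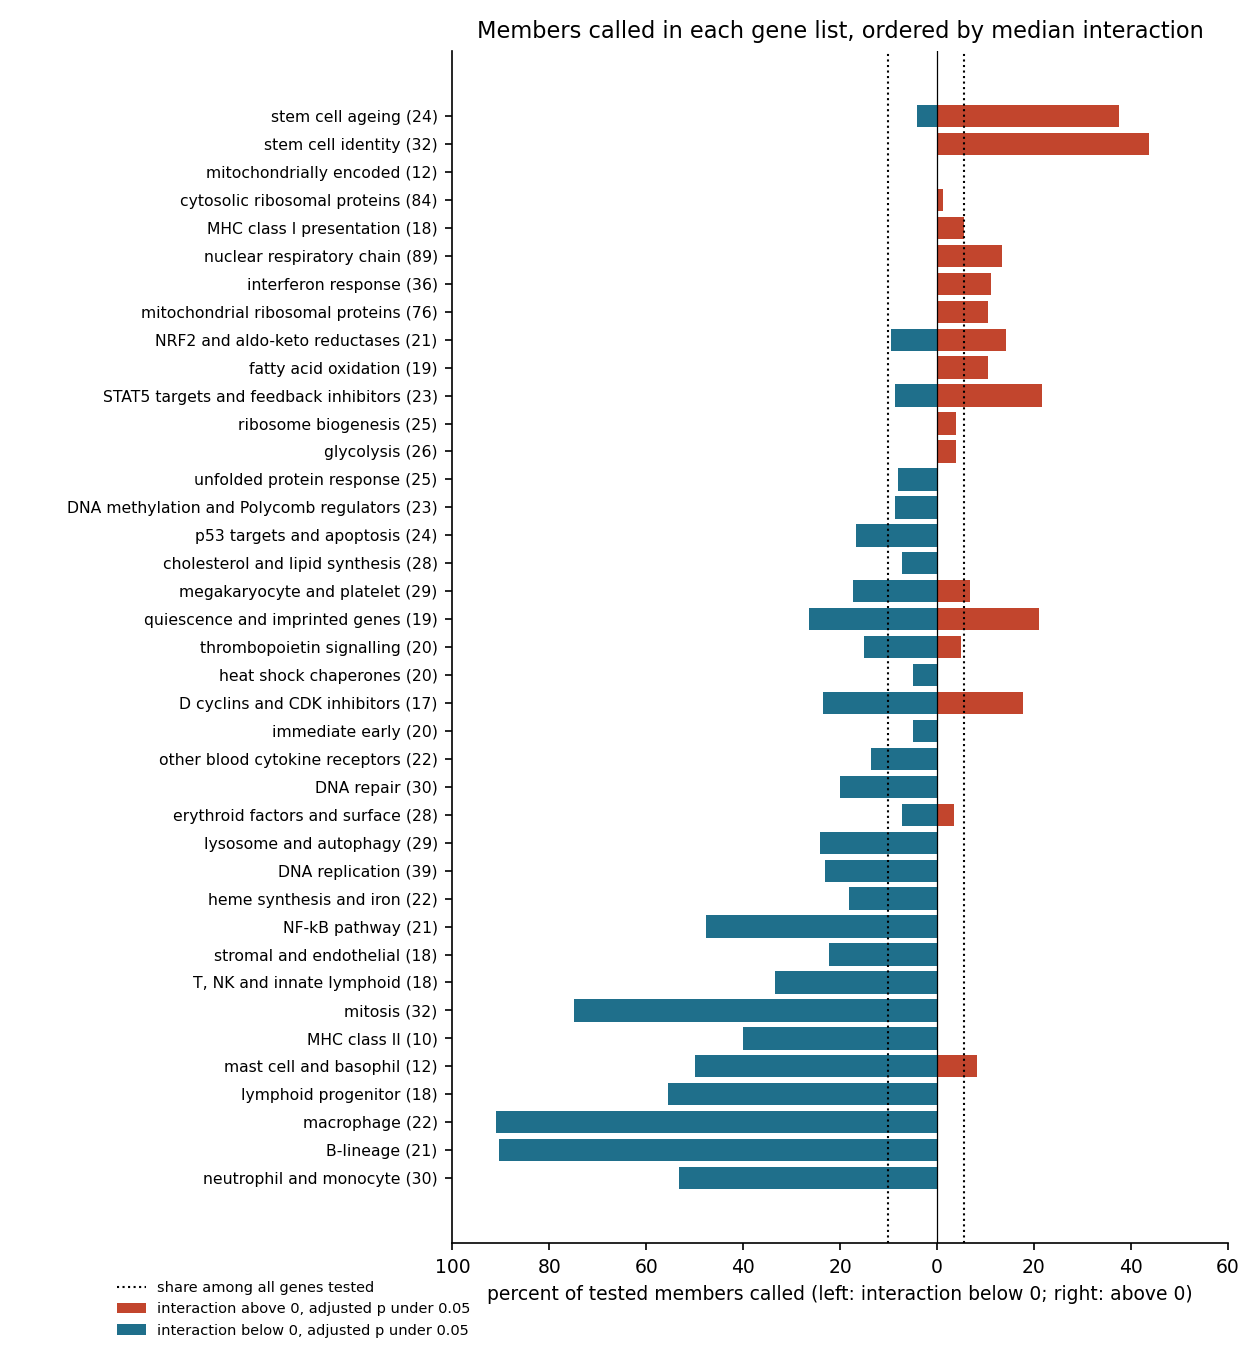
Percent of tested members of each list with at least 10 tested genes whose interaction passed, negative calls to the left and positive calls to the right, ordered by median interaction; dotted lines mark the shares among all genes tested (10.0% and 5.53%). Macrophage, B-lineage and mitosis lists reach furthest to the left, and stem cell identity and ageing lists furthest to the right.

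Some responses were alike in both genotypes. Taking genes that passed in both arms with the same sign and whose 95% interval for the interaction lay between -1 and 1, 20 genes qualified. Akr1c12 (chr13:4268176-4279433), an aldo-keto reductase, had 6.36, 8.48 and 4.51 FPKM in untreated and 172, 205 and 223 in treated wild type, and 4.62, 3.25 and 3.64 in untreated and 88.0, 181 and 164 in treated knockout libraries. It rose by 4.78 in wild type (adjusted p = 8.49e-06) and 4.85 in the knockout (adjusted p = 3.57e-06), and the difference of 0.07 had an interval of -0.74 to 0.89. Stxbp6, a regulator of vesicle fusion, rose by 3.24 and 3.56 (difference 0.33, interval -0.31 to 0.97), although without treated knockout replicate 1 its interaction passed (adjusted p = 0.0445). Meis3, a homeobox gene, fell by 2.10 and 1.73 (difference 0.37, interval -0.22 to 0.97). A pair of other genes that rose in both genotypes did pass the interaction: Cox4i2, a cytochrome oxidase subunit isoform, rose by 1.93 and 3.55 (1.62 ± 0.34, adjusted p = 0.0111), with treated libraries at 30.5 to 37.5 FPKM in wild type and 17.1 to 32.8 in the knockout, and Clec10a, a lectin receptor, rose by 2.47 and 0.84 (-1.63 ± 0.37, adjusted p = 0.0145).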

How the data were processed

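The authors deposited 1 table of gene-level FPKM values for 12 libraries, 3 in each of 4 groups. Per the labels' protocols, cells were sorted into TRIzol, RNA with an integrity number above 8 was amplified with a SMARTer kit, and paired-end reads were made on a HiSeq4000. TopHat2, Cufflinks 2.2.1 and the mm10 build are named in the submitters' processing notes. Symbols and coordinates are from GENCODE M21 (34490 of 35275 identifiers matched), and promoter windows from RefSeq (GRCm38.p6). FPKM holds no counts: 32.7% to 36.4% of low values were whole multiples (within 0.05) of 1 fragment, so depth is an estimate and no count test was run. Values were tested as log2(FPKM + 1), which understates changes of low genes, with limma 3.58.1 in R 4.3.3 (4 group means, intensity trend, two-sided, Benjamini-Hochberg). The fit was tested on simulated data. Groups came from the labels' source names. Alternatives changed the pseudocount, filter, scaling, trend, weights, block, a Y-linked covariate and the libraries used. The contrast, gene lists and named genes were chosen with earlier results of these data known. Genes named are the extremes of the interaction, the smallest p in each pattern (group mean of at least 5 FPKM), up to 4 per list and fixed markers; immunoglobulin segments and unnamed gene models were only counted. Some genes are not reported here.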

Additional observations from a re-analysis of the deposited data

Results flagged for a closer look

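The effect of Romiplostim differed between wild-type and knockout cells for 1996 genes by the interaction test itself, as reported above. In 9 of the genes named above each arm also passed on its own in opposite directions. Positive values belonged to Lbhd2 (2.70), Hacd4 (2.51), Fam241b (1.97), Gsta4 (1.71) and Nrk (1.30), which fell in wild type and rose in the knockout, 3 of 3 treated libraries lying on that side of the untreated ones in both genotypes. Negative values belonged to Kif2c (-2.11), Plk1 (-1.94), Aurka (-1.77) and Kif20a (-1.69), which rose in wild type and fell in the knockout in the same way. Groups of 3 are too small for a test of single outlying libraries.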

How the results depend on the processing

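The number of called genes stayed within 1.5 times of 1996 in the 24 alternatives except with array weights, the Y-linked covariate, the 2-fold criterion and without untreated wild-type replicate 3, any 1 treated wild-type library or treated knockout replicate 3. The replicate block gave 1922 and, among the genes named, ended the calls of Cdkn1c and Itga2b. Deviations of same-numbered untreated and treated libraries correlated at 0.403, 0.123 and 0.383 in wild type but at 0.188, 0.064 and 0.19 in the knockout, and no label ties a number to a shared animal or batch, so the pairing is at most a hint within wild type. Array weights gave 6220 calls (2699 positive, 3521 negative), with 4348 in the knockout alone, 634 in wild type alone, 674 of opposite signs, 2488 for the wild-type effect and 7138 for the knockout effect, in an estimate that did not fully converge. The Y-linked covariate gave 487 (154 and 333), with 355, 55 and 3 in those patterns and 1059 for the knockout effect. Among the genes named with their interaction, it ended 20 calls. They were Car1, Cish, Ltf, Ngp, Camp, C1qb, Clec10a, Fcna, Grb2, Pik3r1, P2ry12, Vwf, Mcm10, Cdkn1c, Ndufaf8, Cd74, Ctsb, Itga2b, Hlf and Mpo. A 2-fold criterion gave 1170 (333 and 837), 975 of them in the knockout alone. Quantile normalization gave 1434 positive calls, 55.5% of all calls against 35.5%, with a median interaction of 0.084 against -0.047. Genes of opposite signs, 31 in the report, numbered 63 there, 53 with median-of-ratios scaling, 20 without a filter and 18 with a filter of 5 FPKM; that filter also gave 40 in wild type alone and 122 for the wild-type effect. Without the library of highest other-cell markers in each knockout group there were 1992 negative calls, 156 in wild type alone, 77 of opposite signs and 438 for the wild-type effect. Leaving out 1 library gave 1088 to 2687 calls, 369 to 1163 positive, 715 to 1797 negative, 905 to 2246 in the knockout alone, 28 to 148 in wild type alone, 5 to 92 of opposite signs, 65 to 469 for the wild-type effect and 2368 to 4308 for the knockout effect. The small differences of Akr1c12 and Pf4 changed sign: Akr1c12 to -0.051 with the covariate, -0.148 without the libraries of highest other-cell markers and -0.123 to 0.394 with 1 library left out, and Pf4 to 0.647 with array weights and -0.891 to 0.429 with 1 library left out. The cause of these shifts was not tested.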
